A study of Mus musculus with 6 samples.

Results

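The immunity-related GTPases (IRG) and the guanylate-binding proteins (GBP) were examined as a group of 8 genes, *Igtp*, *Irgm1*, *Irgm2*, *Iigp1*, *Gbp2*, *Gbp3*, *Gbp6* and *Gbp7*, chosen by gene symbol from the 36172 entries of the expression table. All 8 symbols were found, each in 1 entry. RNA had been sequenced from intestinal tumor-derived organoids, which are tumor epithelial cells grown in 3 dimensions in a gel, of C57BL/6 mice aged 15 to 20 weeks. All mice carried the *Apc* Δ716 truncation, with loss of the other *Apc* allele in the tumors, and they differed in *Trp53*. The 3 genotypes were *Trp53* +/+, *Trp53* flox/flox, in which both alleles are null, and *Trp53* R270H/R270H, labelled M/M, in which both alleles express the missense protein. Each genotype had 2 organoid preparations from different mice, which gave 6 libraries. In this model the missense allele is switched on in the intestinal epithelium by tamoxifen through a Cre driven by the villin promoter, and the same allele before recombination serves as the null allele. Tamoxifen exposure and the missense protein can therefore not be told apart in a comparison of these 2 genotypes.

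Both families are large or medium-sized GTP-binding proteins that cells make in response to interferons, chiefly interferon-γ. They attack the vacuoles in which intracellular bacteria and parasites live. Effector IRG proteins such as Iigp1 load onto the vacuole membrane, the 3 regulatory IRGM proteins Igtp (also called Irgm3), Irgm1 and Irgm2 sit on the membranes of the cell's own organelles and hold the effectors inactive there, and GBP proteins assemble on the vacuole or on free bacteria and feed into inflammasome signalling. Interferon-γ signals through its receptor and the kinases JAK1 and JAK2 to gamma-activated sites (GAS) in its target genes. Type I and type III interferons act through a complex that contains STAT2 and IRF9 and binds the interferon-stimulated response element (ISRE).

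The deposited values are rpkm, reads per kilobase of transcript, scaled to the mapped reads of the library. No value is below 1 rpkm, so 1 rpkm was treated as the floor of the table, below which a level is unknown. *Trp53* itself stood at 75.9 and 74.3 rpkm in the +/+ libraries, 1.73 and 2.48 rpkm in flox/flox and 72.8 and 82.7 rpkm in R270H/R270H, which sets the flox/flox libraries apart and does not tell +/+ from R270H/R270H libraries. The table gives no read counts. From the steps of 1 read in genes shorter than 230 bases, the depth was estimated at 44300000 to 47400000 reads in 5 libraries, and it rested on 5 short genes, too few to use, in flox/flox replicate 1. At this depth the floor stands for about 89.6 to 95.8 reads of the longest *Igtp* transcript. On the log2(rpkm + 1) scale, replicate libraries had a median s.d. of 0.0463 in +/+, 0.0621 in R270H/R270H and 0.247 in flox/flox. All 8 epithelial markers tested were expressed in every library, *Epcam* at 280 to 399 rpkm, although limma called 4 of them lower in R270H/R270H than in flox/flox, 1 lower in R270H/R270H than in +/+ and 2 higher in flox/flox than in +/+. Over all genes tested, the shares called in the same directions were 11%, 6.36% and 4.38%. Of 12 immune cell markers, 10 were at the floor in all libraries, among them *Ptprc*, *Cd3e*, *Cd8a*, *Gzmb* and *Csf1r*. The other 2 were *Cd68* and *Lyz2*, neither called in any comparison. *Cd68* was at 10.2 and 9.87 rpkm in +/+, 2.06 and 11.1 in flox/flox and 2.22 and 2.41 in R270H/R270H. *Lyz2* was above the floor only in flox/flox replicate 2, at 5.67 rpkm. The summed level of these 12 markers was 20.9 to 21.2 rpkm in +/+, 13.1 to 26.8 in flox/flox and 13.2 to 13.4 in R270H/R270H libraries, with the 10 markers at the floor entered at 1 rpkm each. Of 9 stromal and endothelial markers, 4 (*Col1a2*, *Col3a1*, *Pecam1* and *Kdr*) were at the floor throughout, and flox/flox replicate 2 stood apart with *Acta2* at 11.5 rpkm against at most 1.59 rpkm elsewhere. The summed level of the 9 was 16.9 to 17.4 rpkm in +/+, 9 to 23.8 in flox/flox and 9.57 to 9.59 in R270H/R270H libraries, and the endothelial gene *Cdh5* fell in both other genotypes from 8.88 and 9.35 rpkm in +/+. The part of these differences in the values that follow was not tested. Because these are bulk samples, fewer cells with a transcript and less of it per cell cannot be told apart.

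The 8 genes fell into 3 levels of expression. *Irgm1* was expressed in every library, between 9.57 and 22.6 rpkm. *Igtp* and *Irgm2* were expressed at lower and nearly equal levels, highest in R270H/R270H organoids and at the floor in flox/flox organoids. The remaining 5 genes, *Iigp1*, *Gbp2*, *Gbp3*, *Gbp6* and *Gbp7*, were listed at the floor of 1 rpkm in all 6 libraries. This is 62.5% of the group, close to the 65.7% of all entries of the table (23760 of 36172) that were at the floor in every library. The order of the levels was therefore *Irgm1* first, then *Irgm2* and *Igtp*, and then the 5 genes whose order below 1 rpkm is unknown. In the +/+ and R270H/R270H libraries *Igtp* lay at 0.853 to 0.986 of the *Irgm2* level, a difference that was not tested. In flox/flox the order of these 2 genes is unknown as well. The plot of rpkm by library shows these 3 levels.

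**Figure D1:**
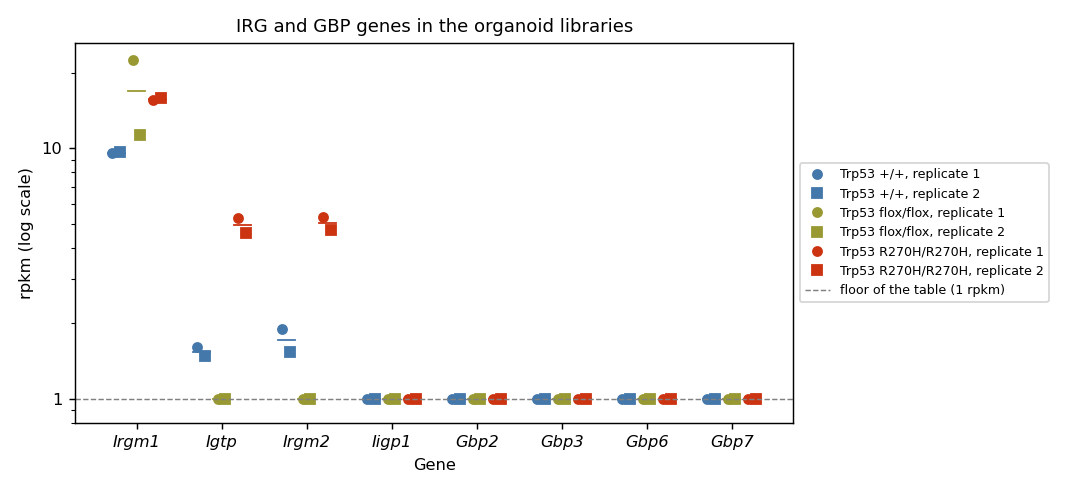
Level of each of the 8 genes in each library, in rpkm on a log axis; circles are replicate 1, squares replicate 2, short lines the genotype mean and the dashed line the floor of 1 rpkm. *Irgm1* lies between 9.57 and 22.6 rpkm in all libraries, *Igtp* and *Irgm2* reach 4.58 to 5.33 rpkm in the R270H/R270H libraries, and 5 genes stay on the floor.

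*Igtp* and *Irgm2* encode regulatory IRGM proteins and lie side by side on chromosome 11 (GRCm38), *Igtp* from 58199556 to 58207591 and *Irgm2* to 58222782, both on the plus strand. *Igtp* was at 1.61 and 1.47 rpkm in the 2 *Trp53* +/+ libraries, at the floor in both flox/flox libraries, and at 5.25 and 4.58 rpkm in the R270H/R270H libraries. *Irgm2* was at 1.89 and 1.53 rpkm in +/+, at the floor in both flox/flox libraries, and at 5.33 and 4.73 rpkm in R270H/R270H. For both genes the R270H/R270H libraries lay highest, the +/+ libraries between and the flox/flox libraries lowest, with no overlap between genotypes. Among all genes tested, 44.2% had both R270H/R270H libraries above both +/+ libraries and 36.8% had them above both flox/flox libraries, while 33.9% had both flox/flox libraries below both +/+ libraries, so each of these orders was common. The share of genes with all of these orders together was not counted. The *Igtp* mean was 3.19-fold higher in R270H/R270H (4.92 ± 0.471 rpkm, mean ± s.d., n = 2) than in +/+ organoids (1.54 ± 0.0963 rpkm, n = 2). The *Irgm2* mean was 2.94-fold higher (5.03 ± 0.422 against 1.71 ± 0.253 rpkm, n = 2 each). Against the flox/flox floor both are lower bounds, at least 4.92-fold for *Igtp* and at least 5.03-fold for *Irgm2*.

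The differences were tested with limma on log2(rpkm + 1) over the 10042 genes with at least 4 rpkm in 1 or more libraries, two-sided, with Benjamini-Hochberg adjustment and a call at an adjusted p under 0.05. *Igtp* rose in R270H/R270H against +/+ with a log2 fold change of 1.22 (s.e. 0.15, adjusted p = 0.0119), and *Irgm2* with 1.16 (s.e. 0.15, adjusted p = 0.0150). Of the 8 genes 3 were tested and these 2 were called higher, where 5.86% of all tested genes were called higher and 6.36% lower. Because *Igtp* and *Irgm2* passed the 4 rpkm limit only through the R270H/R270H libraries, that count does not bear on the group as a whole. Against flox/flox the log2 fold changes were 1.56 for *Igtp* (s.e. 0.15, adjusted p = 0.00504) and 1.59 for *Irgm2* (s.e. 0.15, adjusted p = 0.00527), with 13.6% of genes called higher and 11% lower in that comparison. Both flox/flox libraries are at the floor in these genes and show no spread there, so the fold changes against flox/flox are set by the floor and their standard errors may be too small. Limma shared the spread over the 3 genotypes, so the flox/flox libraries also enter the standard errors and adjusted p in R270H/R270H against +/+. When only the *Trp53* +/+ and R270H/R270H libraries were fitted, the adjusted p was 0.000665 for *Igtp* and 0.00116 for *Irgm2*. That fit called 57% of all genes, so these values do not set the 2 genes apart. In flox/flox against +/+ none of the 3 tested genes was called, where limma called 4.38% of genes higher and 6.9% lower. At an unadjusted p under 0.05 the count there was 1, *Irgm2* with a log2 fold change of -0.43 (s.e. 0.15, adjusted p = 0.119), where 34.7% of all genes passed that limit, and *Igtp* had -0.34 (s.e. 0.15, adjusted p = 0.166). The log scale with a pseudocount of 1 understates changes this close to the floor. Without any 1 of the *Trp53* +/+ or R270H/R270H libraries the log2 fold changes stayed between 1.06 and 1.30, but the adjusted p rose to between 0.0571 and 0.155 for both genes. That design could call few genes of any kind, 0 of the 10042 without either +/+ library or R270H/R270H replicate 1 and 1.13% without R270H/R270H replicate 2.

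**Figure D2:**
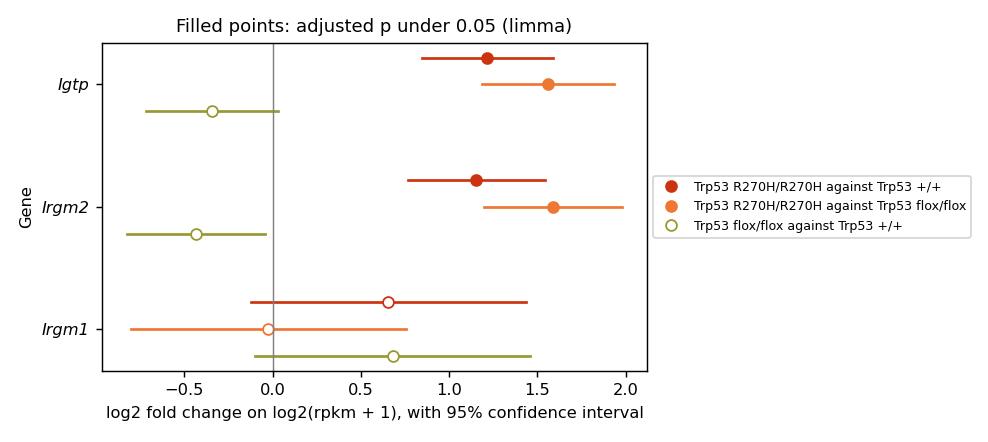
Log2 fold change on the log2(rpkm + 1) scale (x axis) of the 3 tested genes in each comparison of genotypes, with 95% confidence intervals from limma; filled points have an adjusted p under 0.05. *Igtp* and *Irgm2* are filled in both comparisons that involve R270H/R270H, from 1.16 to 1.59, and *Irgm1* is open in all 3.

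*Igtp* and *Irgm2* followed each other from library to library. The *Igtp* level was 0.853 and 0.963 of the *Irgm2* level in the +/+ libraries and 0.986 and 0.969 of it in the R270H/R270H libraries. The 4 ratios thus lay close to each other while the levels differed between the genotypes, and in flox/flox it cannot be given because both genes are at the floor. The plot of one gene against the other shows the 6 libraries along the line of equal values. These 2 values are not fully independent measurements. In the GENCODE M21 annotation 1 of the 3 *Irgm2* transcripts starts in the first exon of *Igtp*, and 162 exonic bases belong to both genes, 8.01% of the exonic bases of *Igtp* and 4.39% of those of *Irgm2*. RefSeq places the 2 genes 7384 bases apart without overlap. Of all 50-base stretches of *Igtp* transcripts, 11.8% also occur in *Irgm2* transcripts, so the authors' counting could have divided or dropped those reads. Of those of *Irgm2*, 6.79% occur in *Igtp*. The part of shared reads in the likeness of the 2 levels was not tested.

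**Figure D3:**
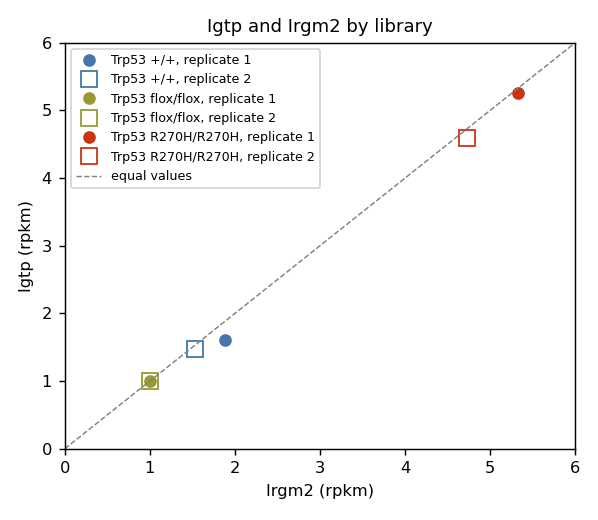
*Igtp* (y axis) against *Irgm2* (x axis) in each library, both in rpkm; filled circles are replicate 1, open squares replicate 2, and the dashed line marks equal values. Both R270H/R270H libraries lie above 4.5 rpkm on both axes, both +/+ libraries below 2 rpkm, and the flox/flox libraries coincide at the floor of 1 rpkm.

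The start regions of the 2 genes are close copies of each other as well. The 300-base windows around their RefSeq starts (GRCm38.p6) aligned over 270 columns with 90.4% identity, whereas the *Igtp* and *Irgm1* windows aligned over 77 columns with 71.4% identity. The 250 bases before each start are shown for the 3 expressed genes, because their ISRE and GAS letters could be compared with their levels. Capitals mark the ISRE core GAAANNGAAA on either strand and the GAS letters TTCNNNGAA, which read the same on both strands. The regions are chr11:58199306-58199555 (plus strand) for *Igtp*, chr11:58214727-58214976 (plus strand) for *Irgm2* and chr11:48871421-48871670 (minus strand) for *Irgm1*, each written 5′ to 3′ along the gene.
Igtp: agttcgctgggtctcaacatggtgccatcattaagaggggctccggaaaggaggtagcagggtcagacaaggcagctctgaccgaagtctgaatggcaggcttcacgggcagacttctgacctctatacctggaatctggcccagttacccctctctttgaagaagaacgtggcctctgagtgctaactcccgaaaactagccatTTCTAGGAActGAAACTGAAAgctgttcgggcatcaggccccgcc
Irgm2: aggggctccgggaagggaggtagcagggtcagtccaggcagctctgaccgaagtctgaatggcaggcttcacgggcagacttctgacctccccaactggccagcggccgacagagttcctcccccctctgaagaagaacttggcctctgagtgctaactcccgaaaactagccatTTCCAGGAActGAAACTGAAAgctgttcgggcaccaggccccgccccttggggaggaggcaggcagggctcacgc
Irgm1: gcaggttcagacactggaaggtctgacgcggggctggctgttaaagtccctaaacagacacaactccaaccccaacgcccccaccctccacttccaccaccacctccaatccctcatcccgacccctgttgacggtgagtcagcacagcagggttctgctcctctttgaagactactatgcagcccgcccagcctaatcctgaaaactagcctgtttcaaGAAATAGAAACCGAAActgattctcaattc

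In *Igtp* the GAS letters began 45 bases and the ISRE core 34 bases before the start, and in *Irgm2* they began 75 and 64 bases before it, in the same order and at the same spacing. *Irgm1* held overlapping ISRE cores 30 and 24 bases before its start and no GAS letters in this window. The window was set by the RefSeq start of *Irgm1*, at 48871420 on the minus strand. GENCODE M21 places the start at 48871683, and the bases before that start were not searched. The ISRE core also stood in genes of the group that were at the floor, as the next 3 stretches of 100 bases show, with the same capitals. They are chr3:142530216-142530315 for *Gbp7*, chr3:142559924-142560023 for *Gbp3* and chr3:142620543-142620642 for *Gbp2*, all on the plus strand. They are shown because these genes carry the ISRE core and were at the floor in every library.
Gbp7: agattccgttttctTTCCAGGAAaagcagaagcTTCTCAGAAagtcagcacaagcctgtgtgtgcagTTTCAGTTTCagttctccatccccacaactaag
Gbp3: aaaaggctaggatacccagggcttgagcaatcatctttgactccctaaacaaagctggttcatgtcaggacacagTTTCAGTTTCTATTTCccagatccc
Gbp2: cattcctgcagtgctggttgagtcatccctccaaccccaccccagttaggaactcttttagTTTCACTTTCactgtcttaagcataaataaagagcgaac

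RefSeq windows were at hand for 6 of the 8 genes (not for *Iigp1* and *Gbp6*), and the ISRE core was found in all 6, against 3.99% of the 27025 genes with such windows. *Gbp3* has a second window, for a start further along the gene, which held none of the 3 motifs. GAS letters were found in 3 of the 6, *Igtp*, *Irgm2* and *Gbp7*, against 9.55% of genes, and both motifs together occur in a window of 0.54% of genes. *Gbp7* thus carried both motifs, like *Igtp* and *Irgm2*, and was at the floor in every library. A consensus half-site of p53, matched on both strands, was found in *Irgm1*, *Gbp3* and *Gbp7* and in 9.55% of all genes, and in neither *Igtp* nor *Irgm2*. The p53 half-site of *Irgm1* lay 47 bases before the start, ahead of its ISRE cores. A match of letters is a description and does not show that a factor binds there.

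**Figure D4:**
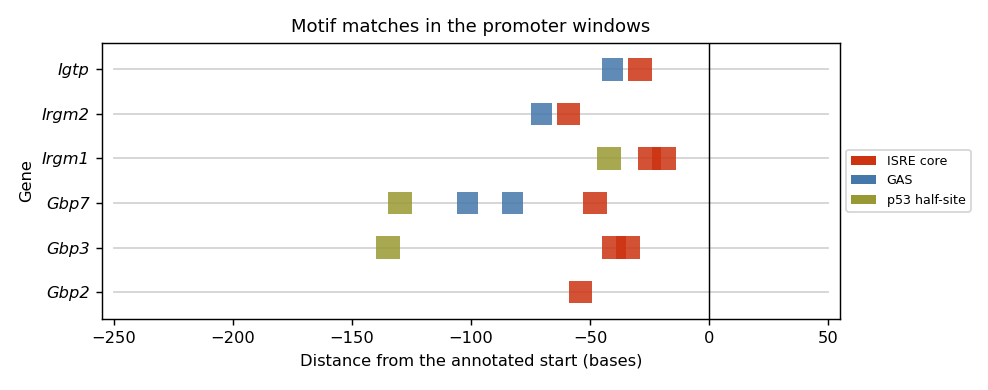
Matches to the ISRE core, the GAS letters and the p53 half-site in the windows of 6 genes, from 250 bases before to 50 bases after the annotated start (x axis, in bases). The ISRE core lies within 64 bases of the start in all 6 genes, and the GAS letters stand just before it in *Igtp* and *Irgm2*.

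*Irgm1* encodes the regulatory IRGM protein best known for its part in autophagy and in protection against mycobacteria, and lies apart from the other 2 IRGM genes on chromosome 11, from 48861968 to 48871683 on the minus strand. It was at 9.57 and 9.64 rpkm in the *Trp53* +/+ libraries, at 22.6 and 11.2 rpkm in flox/flox and at 15.5 and 15.9 rpkm in R270H/R270H. Both R270H/R270H libraries lay above both +/+ libraries, while the flox/flox pair enclosed the R270H/R270H pair. Its mean was 1.64-fold higher in R270H/R270H (15.7 ± 0.258 rpkm) than in +/+ organoids (9.60 ± 0.0505 rpkm) and 1.76-fold higher in flox/flox (16.9 ± 8.02 rpkm, n = 2 each). In limma with the spread shared by all 3 genotypes it was not called in any comparison, with log2 fold changes of 0.66 in R270H/R270H against +/+ (s.e. 0.31, adjusted p = 0.214), 0.68 in flox/flox against +/+ (s.e. 0.31, adjusted p = 0.182) and -0.02 in R270H/R270H against flox/flox (s.e. 0.31, adjusted p = 0.96). The 95% confidence interval of the last value, -0.80 to 0.75, leaves room for a difference in either direction. When only the *Trp53* +/+ and R270H/R270H libraries were fitted, the same 0.66 had an adjusted p of 0.00132, and without flox/flox replicate 1 or replicate 2 it had 0.0013 and 0.00122. Between 57% and 57.1% of all genes were called in those 3 fits, so these values do not set *Irgm1* apart. Both flox/flox libraries also lay above both +/+ libraries, as they did in 30.6% of all genes tested.

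The flox/flox libraries placed *Irgm1* and the *Igtp* and *Irgm2* pair on opposite sides of +/+, but none of the 3 genes was called in that comparison. *Irgm1* exceeded *Igtp* by 5.95- and 6.55-fold in the +/+ libraries and by 2.96- and 3.47-fold in the R270H/R270H libraries. In flox/flox, where *Igtp* was at the floor, *Irgm1* was at least 22.6-fold and at least 11.2-fold higher than *Igtp*. The same ratios against *Irgm2* were 5.07 and 6.30 in +/+ and 2.92 and 3.36 in R270H/R270H. For neither gene did the ratios of the +/+ and R270H/R270H libraries overlap, and how often ratios of other genes do so was not counted. With 2 libraries in each group an exact permutation test of such a ratio cannot give a p below 0.333, and none was made. Without flox/flox replicate 1 the log2 fold change of *Irgm1* in flox/flox against +/+ was 0.21, and without replicate 2 it was 1.15 (adjusted p = 0.000414, with 68.5% of all genes called), so its size rests on which flox/flox library is used. Against flox/flox the R270H/R270H level of *Irgm1* turned from 0.45 higher without flox/flox replicate 1 (adjusted p = 0.00706) to 0.50 lower on the log2 scale without replicate 2, at -0.50 (adjusted p = 0.0025). In these 2 fits 53% and 72.3% of all genes were called.

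Within 200 kb of *Igtp* and *Irgm2* the table lists 15 other genes, of which 7 were at the floor in all libraries and 8 were tested, and limma called 0 of the 8 in R270H/R270H against +/+ (1 at an unadjusted p under 0.05, which 32.0% of all genes passed in this comparison). Their log2 fold changes ranged from -0.16 to 1.05, the highest being that of *Lypd8* (adjusted p = 0.326), which was named after its value was seen. Around *Irgm1* 17 genes are listed within the same distance, 14 at the floor and 2 tested, with 0 called and 0 at an unadjusted p under 0.05.

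The effector *Iigp1* on chromosome 18 was at the floor in all 6 libraries. The 3 GBP genes on chromosome 3, *Gbp7* (142530342 to 142550149), *Gbp3* (142560026 to 142573209) and *Gbp2* (142620602 to 142638008), were at the floor throughout as well. So was *Gbp6* on chromosome 5 (105270702 to 105293698). These 5 genes gave no difference to test, and a change below 1 rpkm would not be seen. Of the 50-base stretches of *Gbp6* transcripts, 70.7% also occur in transcripts of other annotated genes, so its own value is uncertain if such reads were dropped. That share was 12.7% for *Gbp7* and between 1.69% and 3.75% for *Iigp1*, *Gbp2* and *Gbp3*, so most of their sequence could be counted at that length.

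Most other interferon-inducible GTPases were at the floor. Of 21 further genes of these families, which included the *Tgtp* effectors, *Gm12250* (Irgb10), the other *Gbp* genes, the giant GTPase *Gvin1* and the antiviral *Mx1* and *Mx2*, 17 (81.0%) were at the floor in all libraries and none reached 4 rpkm. The other 4 were *Gbp9*, *Gvin1*, *Tgtp2* and *Gbp4*, of which *Gbp9* and *Gvin1* are described after their values were seen. *Gbp9* was at the floor in all +/+ and flox/flox libraries and at 2.87 and 2.73 rpkm in R270H/R270H. *Gvin1* was at 1.49 and 1.44 rpkm in +/+, at the floor in both flox/flox libraries and at 2.49 and 2.43 rpkm in R270H/R270H, the same order of genotypes as in *Igtp* and *Irgm2*. When the 4 rpkm limit was lifted and all 12412 genes above the floor were tested by limma, *Gvin1* rose in R270H/R270H against +/+ by a log2 fold change of 0.49 (adjusted p = 0.00771). That fit called 15.4% of all genes in this comparison. Both flox/flox libraries of *Gvin1* show no spread at the floor, so its standard error may be too small. Since the gene was picked after its values were seen, this p adds nothing to the order described. For *Gbp9* no test is given, since it was above the floor only in the R270H/R270H libraries. *Tgtp2* and *Gbp4* were above the floor in 1 R270H/R270H library each, at 1.17 and 1.05 rpkm.

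The genes that carry the interferon signal to this family were expressed. *Ifng* and the other 5 ligands on the list were at the floor in all libraries. The interferon-γ receptor chains *Ifngr1* (37.3 to 49.5 rpkm) and *Ifngr2* (58.3 to 71.8 rpkm), and the kinases *Jak1* (25.8 to 44.6 rpkm) and *Jak2* (8.16 to 21.8 rpkm), were not called in any comparison. Of the 6 receptor genes tested, 1 was called, *Ifnar1*, a chain of the type I receptor, with a log2 fold change of 0.76 in R270H/R270H against flox/flox (adjusted p = 0.0267). Over all genes tested, 13.6% were called higher and 11% lower in that comparison. *Irf9*, the DNA-binding partner of STAT2, was at 3.77 and 3.92 rpkm in +/+, 1.39 and 3.42 in flox/flox and 8.50 and 9.04 in R270H/R270H, so both R270H/R270H libraries lay above the other 4, as in 26.5% of all genes tested. It was called against flox/flox (log2 fold change 1.59, adjusted p = 0.0231) and not against +/+ (1.01, adjusted p = 0.0882), while *Stat2* lay between 4.07 and 6.80 rpkm and was not called. *Irf9* passed the 4 rpkm limit only through the R270H/R270H libraries.

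*Irf1*, the factor that interferon-γ induces and that acts on IRG and GBP genes, had another order than *Igtp* and *Irgm2*. It was at 11.2 and 9.27 rpkm in +/+, 16.7 and 17.0 in flox/flox and 8.05 and 8.67 in R270H/R270H. It was called higher in flox/flox than in +/+ (log2 fold change 0.68, adjusted p = 0.0344) and lower in R270H/R270H than in flox/flox (-0.93, adjusted p = 0.0111), so it was highest in the genotype in which *Igtp* and *Irgm2* were at the floor. *Irf7* was called lower in flox/flox than in +/+ (-0.92, adjusted p = 0.0409) and higher in R270H/R270H than in flox/flox (1.07, adjusted p = 0.0195). Of the 10 tested genes of signal transduction, 0 were called in R270H/R270H against +/+ (2 at an unadjusted p under 0.05, against 32.0% of all genes), and their median log2 fold change was 0.15, against 0.03 over all genes tested. Among 4 tested feedback inhibitors, *Usp18*, an inhibitor of type I interferon signalling, rose most, from 1.14 and 1.55 rpkm in +/+ and the floor in flox/flox to 11.0 and 8.67 rpkm in R270H/R270H (log2 fold change 2.20, adjusted p = 0.00441 against +/+). *Usp18* passed the 4 rpkm limit only through the R270H/R270H libraries, so its call does not bear on the list as a whole. Its flox/flox pair shows no spread at the floor, so its standard error may be too small. *Pias1* was called higher in R270H/R270H than in flox/flox (0.52, adjusted p = 0.0247), where 13.6% of all tested genes were called higher.

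**Figure D5:**
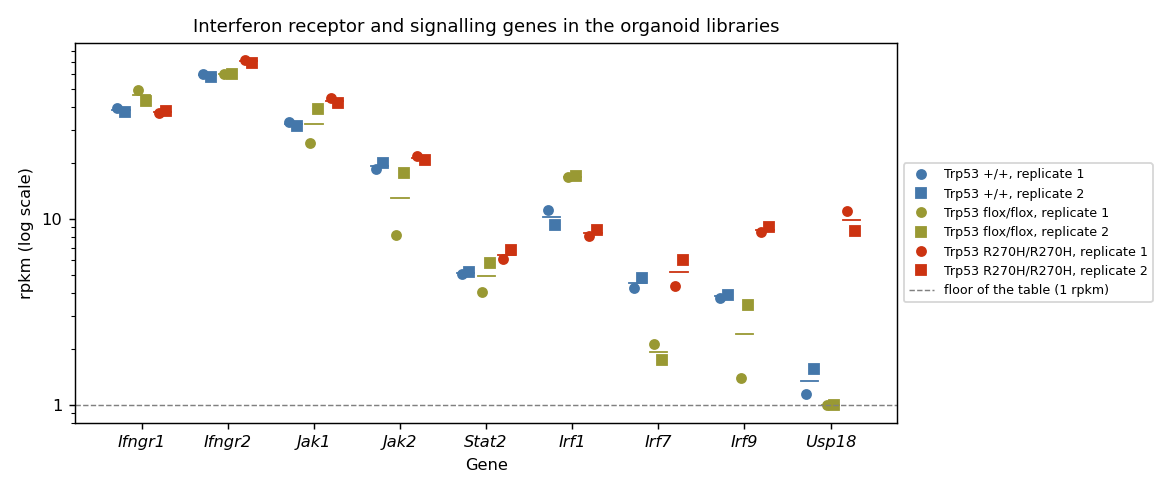
Levels in rpkm on a log axis of interferon receptor chains, kinases, transcription factors and the inhibitor *Usp18* in each library; circles are replicate 1, squares replicate 2, short lines the genotype mean and the dashed line the floor. Both R270H/R270H libraries lie above the other 4 for *Ifngr2*, *Jak1*, *Jak2*, *Stat2*, *Irf9* and *Usp18*, as in 26.5% of all genes tested. Both flox/flox libraries lie highest for *Ifngr1* and *Irf1*.

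Of 15 other interferon-γ target genes, 3 were at the floor in all libraries (*Cxcl9*, *Cxcl11* and *Ido1*) and 5 were tested. None of the 5 was called in R270H/R270H against +/+ by limma (1 at an unadjusted p under 0.05, against 32.0% of all genes), with a median log2 fold change of 0.05. *Psmb10*, a subunit of the immunoproteasome, was called higher in flox/flox than in +/+ (0.92, adjusted p = 0.0456) and lower in R270H/R270H than in flox/flox (-1.18, adjusted p = 0.0179), and the tryptophan tRNA synthetase gene *Wars* was called lower in R270H/R270H than in flox/flox (-0.65, adjusted p = 0.0254).

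The genes listed for the machinery with which these GTPases work were above the floor in all libraries, except *Nlrp3* and *Il1b*. These 2 inflammasome genes were at the floor throughout. Of 14 genes that tag vacuoles, most of them parts of the ubiquitin-like conjugation system of autophagy that IRG proteins need to find their targets, 12 were tested and 0 were called in R270H/R270H against +/+ (1 at an unadjusted p under 0.05, against 32.0% of all genes), and *Atg16l1* was called higher in R270H/R270H than in flox/flox (0.50, adjusted p = 0.041). Of 6 tested inflammasome genes, through which GBP proteins act, 2 were called lower in R270H/R270H against +/+, where 6.36% of all tested genes were called lower. At an unadjusted p under 0.05 the count was 3, against 32.0% of all genes. *Gsdmd*, the pore-forming protein of pyroptosis, was at 79.8 and 87.9 rpkm in +/+, 34.8 and 55.8 in flox/flox and 24.8 and 26.8 in R270H/R270H (log2 fold change -1.66, adjusted p = 0.0164). *Casp1* was at 15.6 and 16.5 rpkm in +/+, 6.26 and 5.56 in flox/flox and 7.11 and 8.83 in R270H/R270H (-0.93, adjusted p = 0.0197), and it was also called lower in flox/flox than in +/+ (-1.30, adjusted p = 0.0127).

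The genes whose pattern over the 6 libraries was most like the mean of the 3 tested members were sought among 3535 genes that varied by at least 1 on the log2(rpkm + 1) scale. Likeness was Pearson's r to the mean standardized profile of *Igtp*, *Irgm2* and *Irgm1*, which is high in R270H/R270H and, through *Irgm1*, uneven in flox/flox. The 3 genes did not share 1 pattern: r over the 6 libraries was 0.997 between *Igtp* and *Irgm2* but 0.207 and 0.166 between *Irgm1* and these 2, so the mean profile is that of no single gene. The 10 highest values lay between 0.992 and 0.997, for *Peli1*, *Tcf4*, *Otc*, *Hist2h2be*, *Lrrn3*, *Vdr*, *Vipr1*, *Gm1123*, *Slc35f2* and *6430573F11Rik*. *Peli1*, with the highest r to this mean, was at 4.20 and 4.30 rpkm in +/+, 5.34 and 3.97 in flox/flox and 9.30 and 8.75 in R270H/R270H. All 10 are correlations over the same 6 libraries of 3 genotypes, and with so few points many genes reach high values.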

How the data were processed

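The authors made stranded poly(A) libraries, sequenced them on an Illumina HiSeq, aligned reads to the mm10 build, computed rpkm in StrandNGS and deposited 1 column of rpkm values for each library. Its version, gene models, read filters and treatment of reads with several matches are not given in the sources used here. Values below 1 appear to have been raised to 1 (inferred from the values). The test took the 10042 of 36172 genes that reached 4 rpkm in any library. They were fitted as log2(rpkm + 1) in R 4.3.3 with limma 3.58.1 (lmFit, eBayes with trend), with 3 genotypes, 2 libraries each, no block, and a threshold of 0.05. Depth is given as estimated. The code was tested on simulated data. Sequences came from RefSeq (GRCm38.p6) and positions from GENCODE M21, both matched by symbol, with 5 list genes matched by gene ID. Python 3.11.15 and Biopython 1.88 were used. Named are the 8 members, list genes called in any comparison, fixed signalling genes, of which 1 is not reported here, and the 10 most alike. Members and lists were chosen with earlier results of these data known. Same-numbered libraries come from different mice, so the main fit had no block. Deviations of same-numbered libraries correlated at 0.117, -0.291 and -0.196 in the 3 pairs of genotypes. With 2 libraries in each genotype, these values cannot settle whether the numbers pair the samples.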

Additional observations from a re-analysis of the deposited data

How the results depend on the processing

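The number of the 8 genes called in R270H/R270H against +/+ was 2, with 0 to 3 when 1 library was left out. The 0s came where at most 1.13% of all genes were called and the 3s where 57.1% were, so this range follows the fits and says little about these genes. In R270H/R270H against flox/flox it was 2, with 1 to 3 when 1 library was left out and 1 with a variance weight for each genotype, where *Irgm2* had an adjusted p of 0.0508. In flox/flox against +/+ it was 0, with 0 to 3 when 1 library was left out: 3 without flox/flox replicate 2, where 68.5% of all genes were called, and 1 (*Irgm2*, adjusted p = 0.0423) without flox/flox replicate 1, where 40.4% were. *Irgm1* in R270H/R270H against flox/flox changed sign with upper-quartile scaling, to a log2 fold change of 0.00404 from -0.02, and without flox/flox replicate 1, to 0.45, and was -0.50 without flox/flox replicate 2. When 1 library was left out, the lone library of a genotype was assumed to vary like the others. Without R270H/R270H replicate 1, *Irgm2* against flox/flox had an adjusted p of 0.0501. With the replicate block the counts of called genes were 2, 2 and 0, as without it. *Igtp* against +/+ then had an adjusted p of 0.0385 and *Irgm2* 0.0419. The counts were also 2, 2 and 0 with the R270H/R270H numbers exchanged, an alternative chosen after seeing the data. Over all 15 alternatives, the log2 fold change of *Igtp* against +/+ lay between 1.14 and 1.61 and that of *Irgm2* between 1.06 and 1.51. The floor of the deposited values limits the 5 genes at it, for which nothing below 1 rpkm can be compared.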
